A study of Mus musculus with 675 samples.

Results

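Smooth muscle cells of the mouse aorta that were high in Wnt16, a secreted Wnt ligand, are described here cell by cell. They are also set against smooth muscle cells without a Wnt16 count from the same pools of mice. Members were chosen by their own counts. A cell was called smooth muscle where Myh11 reached 1000 CPM (CPM is a gene's count in a cell relative to the cell's total count), Cnn1 reached 500 CPM, Cdh5 stayed under 100 CPM and fewer than 2 of Dcn, Lum, Serpinf1 and Pi16 reached 100 CPM. It was a member where Wnt16 reached 100 CPM as well. The rule found 52 Wnt16-high cells in pool A and 54 in pool B, the 2 pools of mice, which is 19.3% of 548 smooth muscle cells among 675 cells in all.

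The cells came from male C57BL/6 mice aged 10 weeks, with no treatment or engineered allele given in the labels. Single cells were sorted into plates and read by Smart-seq2, a full-length method without molecular identifiers. Each of 2 plates held cells pooled from 2 mice, called pool A and pool B. The pool was the replicate, so every comparison rests on 2 pools, and differences between animals of a pool cannot be seen. The tissue label was aorta, while the protocol text named the heart, and the labels gave no sort gate. Total counts per cell ran from 51886 to 713700.

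Wnt proteins are lipid-modified ligands that act on neighbouring cells. Porcn adds the lipid, Wls carries the ligand to the surface, and Frizzled receptors with Lrp5 or Lrp6 receive it, which keeps the kinase complex around Axin and Apc from marking beta-catenin for destruction. Other Wnt signals run through small GTPases, Jun kinase or calcium. Wnt16 is best known from bone, where it restrains osteoclast formation. In vessels, smooth muscle cells form the media, the contractile layer between endothelium and adventitia, and Myh11, Cnn1, Acta2 and Tagln encode parts of their contractile apparatus.

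Wnt16 (ENSMUSG00000029671) lies on the plus strand at chr6:22288227-22298522 in GRCm38. The 250 bases before its start in RefSeq (GRCm38.p6, plus strand, chr6:22287977-22288226) are shown because the members are set apart by transcripts of this gene. Capitals mark the CCAAT box.

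Wnt16 promoter: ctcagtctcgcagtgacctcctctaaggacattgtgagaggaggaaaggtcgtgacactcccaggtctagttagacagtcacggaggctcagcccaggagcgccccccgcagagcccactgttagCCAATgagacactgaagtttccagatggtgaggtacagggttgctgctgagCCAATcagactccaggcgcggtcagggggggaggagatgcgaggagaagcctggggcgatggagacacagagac

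The window held 2 copies of the CCAAT box (CCAAT, or ATTGG on the other strand). Of 32851 RefSeq promoter windows of the same length, 33.8% held at least 1 copy and 10.1% at least 2. No copy of CTTTGA, the core that TCF and LEF factors bind, was found on either strand (present in 13.8% of windows), nor of TATAAA (12.4%), GGGCGG (32.7%) or the palindrome CACGTG (6.02%). The CArG box, the element that serum response factor binds in contractile genes, was absent from the window too (1.47% of windows). These are letter matches in 1 window, not sites shown to be bound.

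Wnt16 reached 100 CPM in 19.3% of the smooth muscle cells, and its level differed widely between them. In pool A, 52 smooth muscle cells were members (17.6%, 95% exact Clopper-Pearson interval 13.5 to 22.5), 55 were Wnt16-low, with Wnt16 above 0 and under 100 CPM (18.6%), and the rest were Wnt16-zero, with no Wnt16 count. In pool B, 54 were members (21.3%, 16.5 to 26.9) and 86 were Wnt16-low (33.99%). These intervals cover counting error only, and those of the members' share overlapped between the pools. The zero share was 63.7% (57.96 to 69.2) in pool A and 44.7% (38.4 to 51.02) in pool B.

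These values chose the members and are given as a description. Wnt16 in the Wnt16-high cells of pool A ran from 100.2 to 758 CPM with a median of 216.6. The members of pool B ran from 105.5 to 706 CPM with a median of 184.6. Behind these levels stood at least 24 reads in every member, with a median of 67 reads in pool A and 65.5 in pool B. Just inside the threshold lay cells at 100.2, 113.6 and 114.2 CPM in pool A and at 105.5, 106.1 and 107.6 CPM in pool B. Just outside lay cells at 92.8, 88.8 and 87.98 CPM in pool A and at 97.95, 96.5 and 94.7 CPM in pool B, so the threshold ran through a continuous range. Most of the Wnt16-low cells sat far lower, with a median of 6.30 CPM in pool A and 4.77 CPM in pool B, which is 2 and 1 reads.

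**Figure D1:**
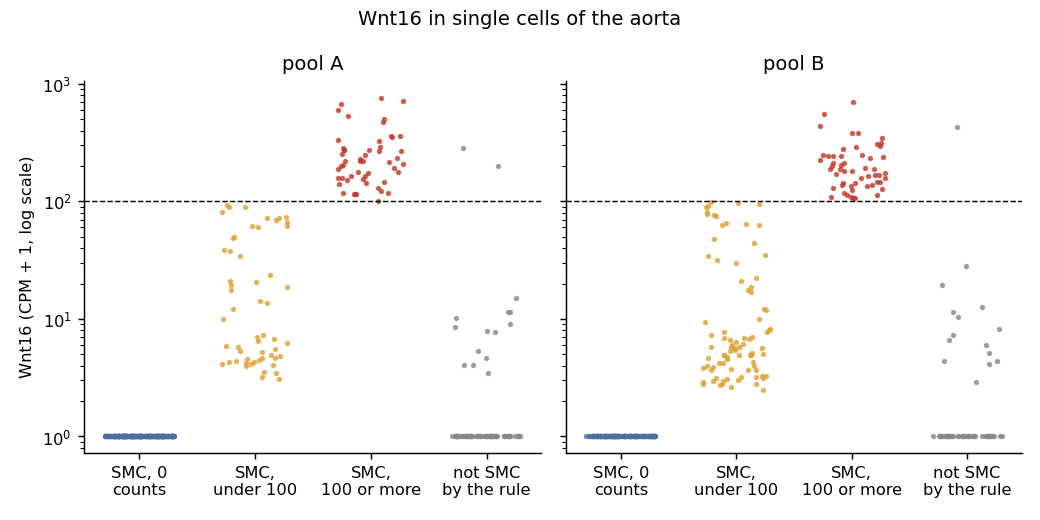
Wnt16 in each cell (CPM + 1, log axis) by pool and class, with 1 point per cell and the 100 CPM threshold as a dashed line. Members run up to 758 CPM, most Wnt16-low cells sit near the level of a few reads, and 3 cells outside the smooth muscle rule lie above the line.

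The members were smooth muscle by their markers. Myh11 and Cnn1 were part of the rule. Acta2, the smooth muscle alpha actin, was not, and it ran from 4060 to 11175 CPM in the members of pool A (median 6846) and from 3551 to 8393 CPM in pool B (median 5706). In the Wnt16-zero cells its median was 6954 CPM in pool A and 6088 CPM in pool B. Tagln, an actin-binding protein, had a median of 2715 CPM in the members of pool A and 2660 CPM in pool B, against 2876 and 2779 CPM in the Wnt16-zero cells. Every member carried both transcripts. All 5 adipocyte markers were at 0 in the members, as were 4 of 6 lymphocyte markers. Of 8 macrophage markers 2 were at 0 (Ptprc and Adgre1), and the list summed to 11.1 CPM in the members of pool A and 5.02 CPM in those of pool B. The 9 cardiomyocyte markers summed to 80.6 CPM in the Wnt16-high and 94.1 CPM in the Wnt16-zero cells of pool A, and to 195.3 and 209.5 CPM in pool B. The 5 chondrocyte markers summed to 109.3 against 99.7 CPM in pool A and 62.3 against 95.7 CPM in pool B.

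Depth and the other cell types' markers were not identical between the classes. The median total count was 305596 in the Wnt16-high cells of pool A against 292691 in the Wnt16-zero cells, and 365523 against 307175 in pool B. The 10 fibroblast markers summed to 1009 CPM in the Wnt16-high cells of pool A and 1183 CPM in those of pool B, against 1212 and 1261 CPM in the Wnt16-zero cells. The 10 endothelial markers summed to 161.7 and 53.9 CPM in the Wnt16-high cells of pools A and B, against 113.1 and 79.5 CPM. Cdh5, Dcn, Lum, Serpinf1 and Pi16, which the rule limited in every class, are among these 20 markers. None of the 20 was at 0 in the Wnt16-high cells. The part of depth and of these transcripts in the values that follow was tested only through the alternatives named beside them.

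To ask what else differed, counts were summed over the cells of each class within each pool, and the sums were compared by edgeR's quasi-likelihood test with the pool as a block and Benjamini-Hochberg adjustment over 15945 genes. No gene other than Wnt16, which the rule fixed, was called between Wnt16-high and Wnt16-zero cells. That was 1 call (0.00627% of the genes tested), and the smallest adjusted p of any other gene was 0.959. Without adjustment 784 genes (4.92%), Wnt16 included, had p under 0.05, which is about the share a threshold of 0.05 gives by itself. Of the other 783, 484 were lower and the rest higher in the Wnt16-high cells. DESeq2, a different count model run on the same sums, called 39 genes besides Wnt16 (40 calls, 0.261% of the 15326 genes with an adjusted p), 10 higher and 29 lower. Every one of the 39 had the same sign in both pools. The test that chose them used both pools, so the choice itself favours this agreement. Values below are therefore measured differences that did not pass the main test.

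The precision of this null varied with level. Over the 7466 genes with a mean of 20 CPM or more, the median standard error (SE) of a log2 fold change was 0.26 and the median change was 0.03. Over the 955 genes at 200 CPM or more the median SE was 0.10, and 90% of the changes lay between -0.17 and 0.25. In the 20 CPM set, 12 genes were at least 2-fold lower in the Wnt16-high cells of both pools, 1 was at least 2-fold higher in both, and 18 passed 2-fold in both pools with opposite signs.

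**Figure D2:**
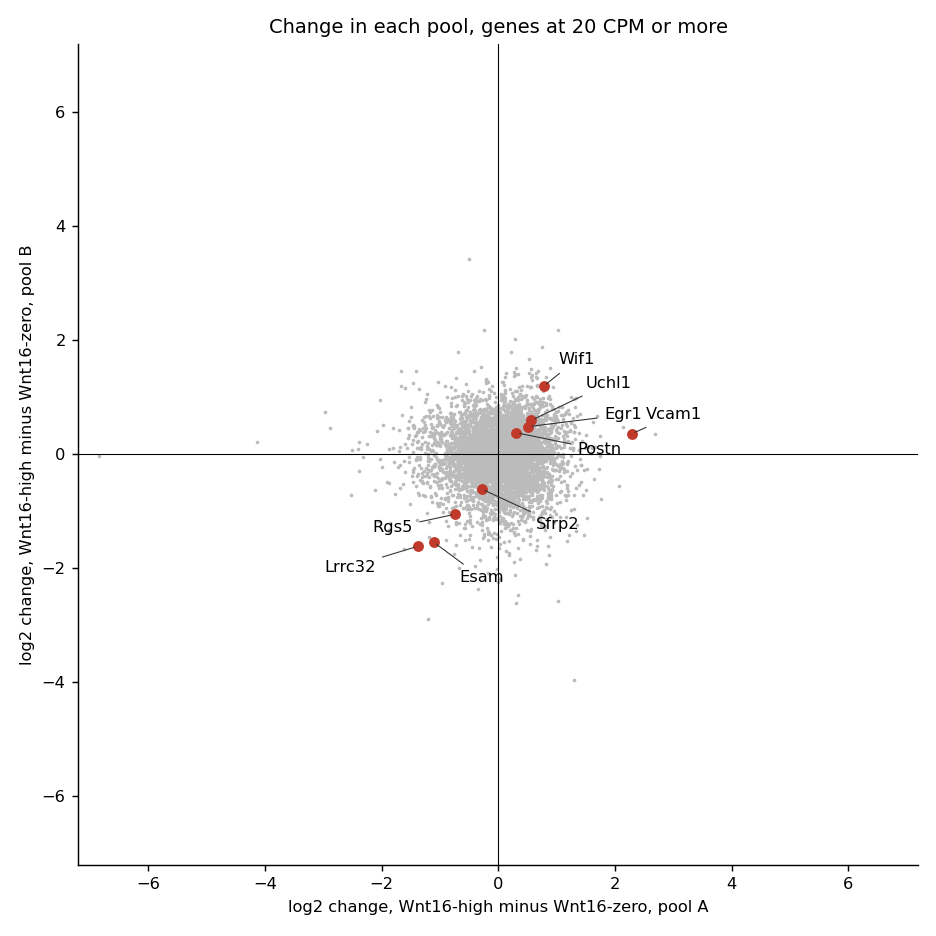
Log2 change from Wnt16-zero to Wnt16-high cells in pool A (x axis) and in pool B (y axis) for the 7466 genes with a mean of 20 CPM or more, 1 point per gene, with 9 named genes in red. Points gather around 0 in both directions, Wif1 lies at 0.77 and 1.197, and Vcam1 is far from 0 only in pool A.

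Among the Wnt pathway genes, Wif1 had the smallest p. Wif1 (chr10:121033960-121100650, plus strand) encodes Wnt inhibitory factor 1, which binds Wnt ligands outside the cell. Its summed level was 193.4 CPM in the Wnt16-high and 117.003 CPM in the Wnt16-zero cells of pool A. In pool B it was 312.98 and 139.01 CPM. Wif1 was higher in the members of both pools, with a log2 fold change of 0.99 ± 0.15 (SE, 2 pools; 95% interval 0.62 to 1.37) and an unadjusted p of 8.2e-04. The adjusted p by edgeR was 0.959 and that by DESeq2 was 2.0e-05. The Wnt16-low cells, which share the Wnt16-zero sums, had 177.8 CPM in pool A and 220.6 CPM in pool B.

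Single cells showed where the Wif1 difference lay. Wif1 reached 100 CPM in 22 of 52 members of pool A (42.3%, exact interval 28.7 to 56.8) and in 62 Wnt16-zero cells (32.98%, 26.3 to 40.2). In pool B it did so in 40 of 54 members (74.1%, 60.3 to 85.04) and in 46 Wnt16-zero cells (40.7%, 31.6 to 50.4). The intervals overlapped in pool A and did not in pool B. Cells of 1 pool share their animals and plate, so the intervals describe counting only. Read the other way, members made up 21.0% of the cells with Wif1 at 100 CPM or more in pool A and 15.8% of those below, and 31.5% against 11.1% in pool B. In pool B, 96.3% of members and 91.2% of Wnt16-zero cells had at least 1 Wif1 read. Thinned to 100000 counts per cell, these shares were 88.9% and 72.7%. In pool A the same shares were 71.2% and 60.6%, and 55.8% and 48.7% after thinning.

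Wif1 did not follow Wnt16 in even steps. In pool A its summed level was 117.003 CPM in cells without Wnt16, 127.6 CPM in cells above 0 and under 20 CPM of Wnt16, 270.7 CPM at 20 to 100 CPM, 201.7 CPM at 100 to 200 CPM and 187.1 CPM at 200 CPM or more. In pool B the same steps gave 139.01, 164.6, 370.9, 279.96 and 361.4 CPM. Summed levels below 20 CPM of Wnt16 were thus close to those of cells without it. In both pools the highest summed level was that of the step from 20 to 100 CPM, below the members' threshold. The share of cells with Wif1 at 100 CPM or more was instead highest at 200 CPM or more of Wnt16. It was 43.3% there in pool A and 86.4% in pool B, against 36.8% and 65% at 20 to 100 CPM. The step from 20 to 100 CPM held only 19 cells in pool A and 20 cells in pool B. With each member paired to a Wnt16-zero cell of like depth, the Wif1 difference was 0.70 ± 0.22 (unadjusted p 0.019).

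**Figure D3:**
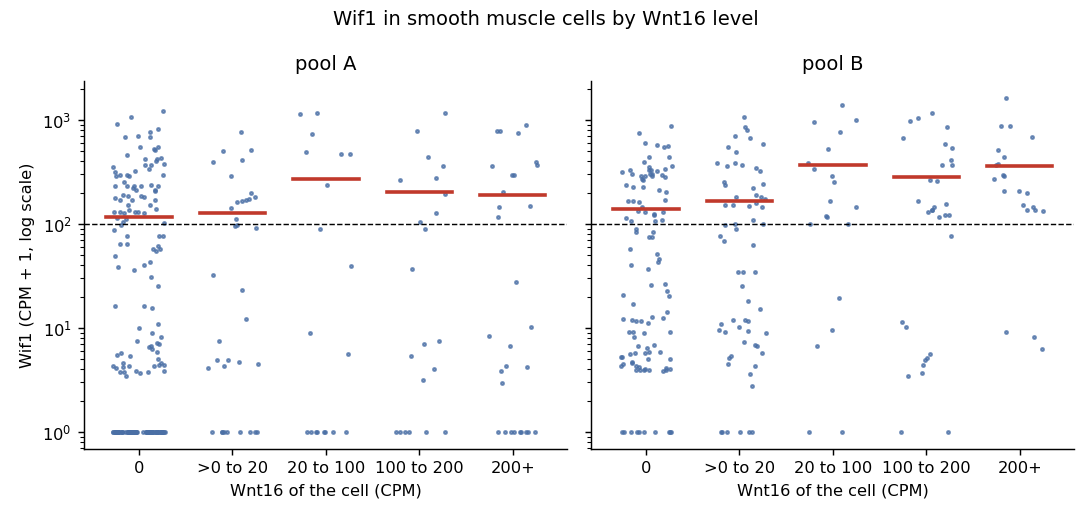
Wif1 in each smooth muscle cell (CPM + 1, log axis) by the cell's own Wnt16 level and pool, with 1 point per cell, red lines at the level of the summed counts and a dashed line at 100 CPM. In pool B few cells at 200 CPM or more of Wnt16 lie below the dashed line (3 of 22), while cells without Wnt16 spread over the whole range.

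Differences of the other antagonists were smaller or of the other sign. Sfrp2, a secreted Frizzled-related protein that binds Wnts, was at 302.8 CPM in the Wnt16-high and 383 CPM in the Wnt16-zero cells of pool A, and at 391 and 607 CPM in pool B. Its log2 fold change was -0.45 ± 0.10 (95% interval -0.71 to -0.19, adjusted p 0.959). It was -0.89 ± 0.14 in the fewer cells at 20 CPM or less of Cdh5 and each of the 4 fibroblast genes of the rule, -0.68 ± 0.09 with depth-matched Wnt16-zero cells, -0.61 in pool B alone and -0.29 in pool A alone. Sost, which blocks Lrp5 and Lrp6, was the most abundant antagonist of the list per length in the members, at 515 CPM per kilobase of exon in pool A and 406 in pool B. It differed by 0.15 ± 0.07. Dkk3, a Dickkopf family member, had 234.4 and 255.5 CPM per kilobase and differed by 0.14 ± 0.06. Frzb, a second Frizzled-related protein, was at 67.2 against 69.03 CPM in pool A and 52.4 against 72.2 CPM in pool B.

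Wnt16 was the main Wnt ligand transcript of the members, and this follows in part from how they were chosen. It stood at 58.9 CPM per kilobase of exon in pool A and 48.3 in pool B. Of the 18 other Wnt genes, 12 had no read in any member, and only Wnt9a reached 10 CPM in the members of either pool. Wnt9a was at 3.42 CPM per kilobase in pool A and 2.70 in pool B, and its summed level was 11.4 CPM against 14.9 CPM in the Wnt16-zero cells of pool A and 8.99 against 9.17 CPM in pool B. Wnt5a, a ligand of the calcium and polarity branch, was at 9.40 CPM in members of pool A and 3.33 CPM in pool B.

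The machinery to release a Wnt protein was present in members and comparison cells alike. Wls was at 323.9 CPM in members and 324.1 CPM in Wnt16-zero cells of pool A, and at 310.9 CPM in members against 360 CPM in pool B (log2 fold change -0.07 ± 0.11). Porcn was at 30.6 against 17.8 CPM in pool A and 31.5 against 26.6 CPM in pool B (0.50 ± 0.51). The receptors Fzd1, Fzd2 and Fzd7 were the most abundant Frizzled genes per length in the members of pool A. Fzd1 was at 162.1 CPM in Wnt16-high and 132.1 CPM in Wnt16-zero cells of pool A and at 136.03 and 87.1 CPM in pool B, a difference of 0.50 ± 0.18 with an adjusted p of 0.959. Lgr6, an R-spondin receptor, was at 369 against 398 CPM in pool A and 230.03 against 313.4 CPM in pool B. Lrp6 differed by -0.42 ± 0.25 and Lrp5 by 0.06 ± 0.40, and the sign of Lrp5 was not the same in the 2 pools.

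Most genes read as output of beta-catenin were too low for a common direction to be judged. Nkd1, a feedback inhibitor induced by Wnt signals, was the only one of 7 feedback targets at 10 CPM or more over the sums. It stood at 146.3 CPM in members and 190.6 CPM in Wnt16-zero cells of pool A, and at 218.8 and 213.8 CPM in pool B. Axin2, the target most often used as a reporter, was at 1.05 CPM in members and 1.17 CPM in Wnt16-zero cells of pool A. In pool B it was at 24.6 CPM in members and 0.844 CPM in Wnt16-zero cells, and 3 of the 54 members, those at 100 CPM or more, held 86.5% of its reads. Of the transduction genes, Ctnnb1, the gene of beta-catenin, was at 638 against 541 CPM in pool A and 691 against 629 CPM in pool B (0.22 ± 0.07). Axin1, a scaffold of the destruction complex, was at 11.9 against 28.7 CPM in pool A and 3.49 against 12.1 CPM in pool B (-1.47 ± 0.40). Bcl9l, a beta-catenin partner, differed by -0.72 ± 0.27. The adjusted p was 0.959 for Ctnnb1, Axin1 and Bcl9l.

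Over the 8 Wnt lists, 85 genes other than Wnt16 could be tested. None was called in either direction, and 10 of the 85 had an unadjusted p under 0.05, beside 4.92% of all genes tested. Of 51 genes at 20 CPM or more, the 95% interval lay above 0 for 3 (Wif1, Fzd1 and Ctnnb1), below 0 for 3 (Sfrp2, Axin1 and Bcl9l) and across 0 for 45. Taken by list, the median log2 fold change of genes at 10 CPM or more was 0.03 for secretion (9 genes), -0.13 for receptors (11), 0.14 for antagonists (7), -0.17 for beta-catenin transduction (17) and -0.03 for the polarity and calcium branch (16). Over all 9501 genes at that level it was 0.02.

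**Figure D4:**
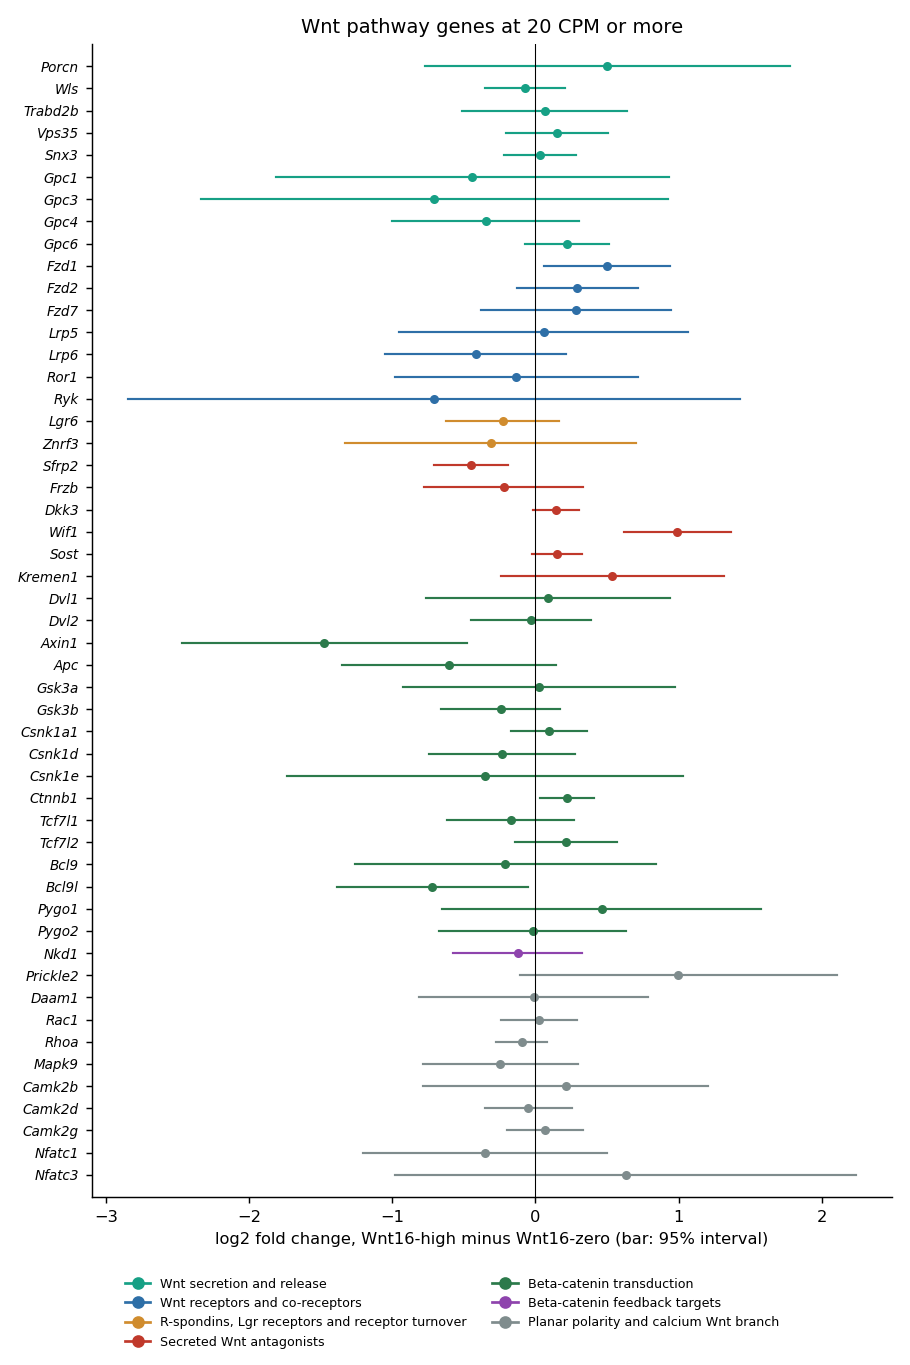
Log2 fold change between Wnt16-high and Wnt16-zero cells (points) with its 95% interval (bars) for 51 Wnt pathway genes at 20 CPM or more, coloured by role. Most bars cross 0, Wif1 is farthest to the right of those that do not, and Axin1 is farthest to the left.

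Genes of the mural cell that wraps small vessels, the pericyte, gave lower sums in the members, though none was called by edgeR. Rgs5, a brake on G protein signals and a pericyte marker, was at 406 CPM in the Wnt16-high and 702 CPM in the Wnt16-zero cells of pool A, and at 191.9 and 405 CPM in pool B. Its log2 fold change was -0.89 ± 0.11 (95% interval -1.18 to -0.61, unadjusted p 3.5e-04, adjusted p 0.959, DESeq2 adjusted p 6.0e-08). The Wnt16-low cells had 324.99 CPM in pool A and 193.8 CPM in pool B.

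Single cells gave a different picture of Rgs5 in each pool. Its median per cell was 22.4 CPM in members and 21.0 CPM in Wnt16-zero cells of pool A, and 23.98 against 92.7 CPM in pool B. Rgs5 reached 100 CPM in 46.2% of members and 42.6% of Wnt16-zero cells in pool A and in 38.9% and 49.6% in pool B. It reached 1000 CPM in 7 of 52 members and 37 Wnt16-zero cells of pool A (13.5% against 19.7%), and in 3 of 54 and 19 cells of pool B (5.56% against 16.8%). The exact intervals overlapped in both pools (5.59 to 25.8 against 14.3 to 26.1, and 1.16 to 15.4 against 10.4 to 25.01). Without the cells at 1000 CPM or more, the summed level was 112.7 CPM in members against 127.8 CPM in pool A and 118.8 against 132.4 CPM in pool B.

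The 8 pericyte markers together summed to 1339 CPM in the Wnt16-high and 1875 CPM in the Wnt16-zero cells of pool A, and to 1075 and 1511 CPM in pool B. Rgs5 alone gave 702 CPM of the Wnt16-zero sum in pool A and 405 CPM in pool B. The Wnt16-low cells summed to 1503 CPM in pool A and 1204 CPM in pool B. Cspg4 (NG2) was at 424 against 513 CPM in pool A and 306.001 against 455 CPM in pool B (-0.39 ± 0.11). Abcc9 differed by -0.18 ± 0.12, Pdgfrb by -0.13 ± 0.12, Kcnj8 by -0.10 ± 0.25 and Notch3, a Notch receptor, by -1.06 ± 0.60. Higd1b was at 0.0618 against 1.75 CPM in pool A and had no read in the members of pool B, against 1.34 CPM. Vtn was at 0.247 CPM in members and 16.9 CPM in Wnt16-zero cells of pool A, and 1 Wnt16-zero cell held 99.1% of its reads there. In pool B 1 cell held 97.1%. Gpx3, an extracellular glutathione peroxidase, likewise rested on few cells. It was at 4.70 against 46.1 CPM in pool A and at 4.39 against 42.1 CPM in pool B (-3.24 ± 0.42), yet 3 cells held 96.5% of the reads in the Wnt16-zero cells of pool A and 1 cell 92.3% in pool B. The highest Vtn cell and the highest Gpx3 cell were the same cell in each pool. Among cells under 100 CPM of Rgs5, the Gpx3 difference turned to 0.35 ± 1.19.

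**Figure D5:**
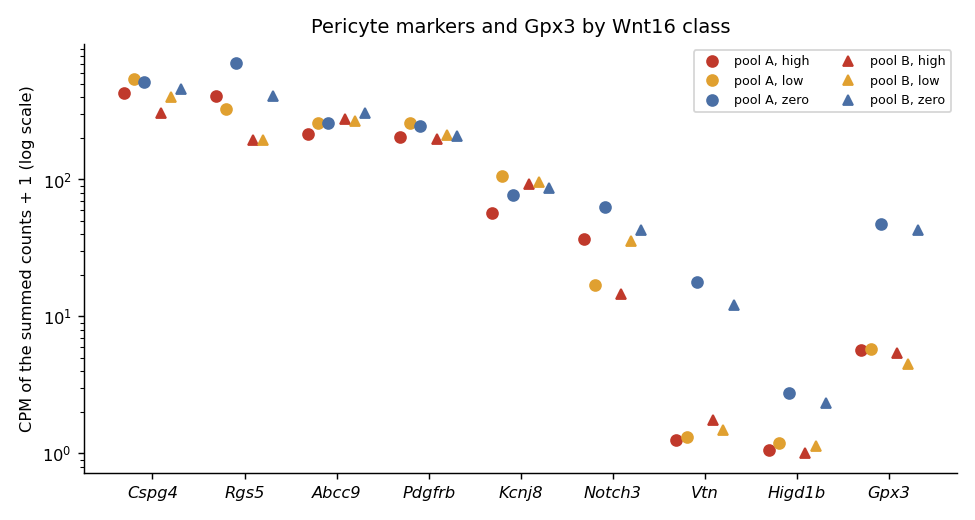
Level of 8 pericyte markers and Gpx3 in the summed counts (CPM + 1, log axis) of the Wnt16-high, Wnt16-low and Wnt16-zero cells, with circles for pool A and triangles for pool B. Rgs5 is lower in the Wnt16-low and Wnt16-high than in the Wnt16-zero sums of both pools, and Vtn and Gpx3 are high only in the Wnt16-zero sums, where 1 to 3 cells hold nearly all their reads.

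Outside the Wnt pathway, the higher genes of the DESeq2 set that reached 20 CPM were Postn, Egr1, Uchl1 and Pafah2, besides Wif1. Postn encodes periostin, a matrix protein of mesenchymal tissue. It was at 1734 against 1452 CPM in pool A and at 2769 against 2167 CPM in pool B, a log2 fold change of 0.34 ± 0.06. Its median per cell was 1645 CPM in members and 1228 CPM in Wnt16-zero cells of pool A and 2718 against 2025 CPM in pool B, so the medians differed in the same direction as the sums. Uchl1, a deubiquitinating enzyme, was at 265.97 against 185.97 CPM and at 479 against 322.2 CPM (0.58 ± 0.14). It reached 100 CPM in 38 of 52 members and 100 Wnt16-zero cells of pool A (53.2%) and in 51 of 54 and 88 cells (77.9%) of pool B. Its reads cannot be told from those of Uchl1os, which overlaps it, since the strand setting was not given in the sources used here. Egr1, an immediate early transcription factor, was at 675 against 490 CPM and at 841 against 611 CPM (0.50 ± 0.11). By edgeR the adjusted p was 0.959 for Postn, Uchl1 and Egr1.

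Egr1 is also a gene that cell dissociation can induce. Of 36 immediate early genes, 29 were at 10 CPM or more, and none was called by edgeR. Their median log2 fold change was 0.19, against 0.02 for all genes at that level. Higher in both pools were 16 of the 29 (55.2%, against 29.03% of all genes) and lower in both were 4. Other lists had shares of that size: 57.1% of 7 secreted Wnt antagonists, 55.6% of 18 proteoglycans and matricellular proteins, 47.1% of 17 modulated smooth muscle genes and 46.7% of 30 contractile genes were higher in both pools. Fos was at 1250 against 1080 CPM in pool A and at 895 against 753 CPM in pool B (0.27 ± 0.14). Klf10, an early response gene too, had the other sign, at 5.69 against 35.01 CPM and 3.17 against 15.98 CPM (-2.43 ± 0.52). The part of dissociation in these values was not tested.

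Lower genes of the DESeq2 set at 20 CPM or more, besides Rgs5, Gpx3 and Klf10, were Esam, Lrrc32, Pcbp3, Hoxb6, Rrp1b and Actc1. Esam encodes an adhesion molecule of endothelium and platelets. It was at 35.4 against 79.1 CPM in pool A and at 21.7 against 64.4 CPM in pool B (-1.31 ± 0.25). It reached 100 CPM in 4 of 52 members and 40 Wnt16-zero cells of pool A (7.69% against 21.3%) and in 3 of 54 and 22 cells of pool B (5.56% against 19.5%). The exact intervals overlapped in both pools (2.14 to 18.5 against 15.7 to 27.8, and 1.16 to 15.4 against 12.6 to 27.98). The Wnt16-low cells were at 74.9 and 74.5 CPM, near the Wnt16-zero cells. Lrrc32, which holds latent TGF-beta at the cell surface, was at 25.4 against 68.7 CPM and at 17.9 against 55.9 CPM (-1.49 ± 0.34). Hoxb6, a positional transcription factor gene, was at 22.4 against 53.8 CPM and at 3.44 against 26.3 CPM (-2.04 ± 0.49). Actc1, the cardiac actin, rested on few cells, with 51.7% of its reads in the Wnt16-zero cells in 1 cell. The other 25 DESeq2 calls stayed under 20 CPM in both classes, and a median of 26.8% of the reads in the higher class came from 1 cell.

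Ranked by the smaller of the 2 within-pool changes, the 12 genes at the top of each direction did not pass the edgeR test either. The higher ones were Pafah2, Ttll12, Zfp787, Zfp623, Zfp157, Enox2, Wdr3, Adamts15, Polm, Slc15a2, Cdk10 and Cables2. Their log2 fold changes ran from 0.93 to 1.92 with SEs of 0.29 to 0.50. Adamts15, a protease that cleaves versican, was at 58.4 against 25.3 CPM in pool A and at 36.8 against 18.7 CPM in pool B. The lower ones were Klf10, Rrp1b, Focad, Ambra1, Zscan22, Gli3, Lrrc32, Itgb8, Tsc22d3, Tmem176b, Pcbp3 and Zc4h2, from -2.51 to -1.46. Gli3, a transcription factor of the Hedgehog pathway, was at 4.64 against 14.04 CPM and at 9.20 against 29.8 CPM. Itgb8, an integrin subunit that frees latent TGF-beta, was at 6.86 against 21.0 CPM and at 7.93 against 20.8 CPM. The highest level of any of these 24 genes in 1 sum was 68.7 CPM, a range where the reads of a few cells set the value.

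Contractile genes lay near 0. Of 31 contractile genes, all were tested, none was called, and the 30 at 10 CPM or more ran from -0.29 to 0.31 with a median of 0.02. Elastic fibre genes (16 at that level) had a median of -0.01, and Eln, the gene of elastin, was at 2758 against 2716 CPM in pool A and 1841 against 2050 CPM in pool B (-0.03 ± 0.06). Collagens (15 genes) had a median of -0.09 and proteoglycans and matricellular proteins (18 genes) of 0.05. TGF-beta and BMP genes (27) stood at -0.05, Notch genes (8) at 0.02 and osteochondrogenic genes (11) at -0.01. No gene of any of the 29 lists was called by edgeR. Genes of the smooth muscle rule, whose levels it limited in every class, were not taken out of the lists. Modulated smooth muscle genes (17) stood at 0.09. Outside the Wnt lists, some medians lay farther than that of collagens from the 0.02 of all genes. Lower were myocardin, SRF and MEF2 regulators (-0.15, 10 genes), Hox genes (-0.15, 6 genes) and ion channel and calcium genes (-0.10, 27 genes). Higher were neural crest and mesenchymal transcription factors (0.17, 17 genes) and immediate early genes (0.19, 29 genes). Over all 29 lists the medians ran from -0.20 (R-spondins, Lgr receptors and receptor turnover, 4 genes) to 0.19 (immediate early genes).

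Genes that mark other subsets of smooth muscle cells were not called, and their shares of cells differed from gene to gene. Tnnt2, a cardiac troponin gene, reached 100 CPM in 3.85% of members and 8.51% of Wnt16-zero cells in pool A and in 27.8% and 17.7% in pool B. P2rx1, an ATP-gated channel, did so in 5.77% and 14.9% of cells in pool A and in 16.7% and 15.04% in pool B. Its summed level was 22.8 against 65.8 CPM in pool A and 43.3 against 57.3 CPM in pool B, a log2 fold change of -0.94 ± 0.33 (unadjusted p 0.033, adjusted p 0.959) that stayed negative in all 15 alternatives. Klhl30 reached the level in 23.1% against 17.02% and 31.5% against 27.4%, and Adra1d, an adrenergic receptor, in 13 of 52 members against 31.4% and 27.8% against 33.6%. The exact intervals of the 2 classes overlapped in both pools for these 4 genes. Vcam1, an adhesion molecule of modulated smooth muscle, was at 111.4 against 23.6 CPM in pool A and 39.7 against 31.4 CPM in pool B (1.38 ± 0.50), but 1 member of each pool held 69.03% and 66.9% of the members' reads. Among cells under 100 CPM of Rgs5 its change was -0.36 ± 0.55.

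Of 14 annotated genes within 500 kb of Wnt16 on chromosome 6, 6 had enough reads to be tested, and none of these was called. Fam3c, 7998 bp downstream on the other strand, was at 120.6 against 108.7 CPM in pool A and 151.8 against 105.9 CPM in pool B (0.38 ± 0.19, adjusted p 0.970). Cped1, 31823 bp upstream, was at 843 against 772 CPM and 481 against 487 CPM (0.09 ± 0.08), and its reads cannot be told from those of the overlapping Gm26719 and Gm42573. Ing3 differed by -0.15 ± 0.36 and Tspan12 by 0.50 ± 1.09.

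The Wnt16-low cells, set against the same Wnt16-zero sums, gave 1 call by edgeR, Wnt16 itself (0.00627%), and 503 other genes at an unadjusted p under 0.05. DESeq2 called 10 genes besides Wnt16 (11 calls, 0.0764% of genes with an adjusted p). Because both comparisons share the Wnt16-zero cells, their values are only set side by side. Wif1 was 0.99 in the Wnt16-high and 0.64 in the Wnt16-low comparison, Rgs5 -0.89 and -1.08, Gpx3 -3.24 and -3.42, Postn 0.34 and 0.06, Uchl1 0.58 and 0.28, Egr1 0.50 and 0.10 and Esam -1.31 and 0.08, all as log2 fold changes.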

How the data were processed

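Per the labels' protocols, single cells were sorted into plates and read by Smart-seq2. Per the submitters' processing notes, bcl2fastq, Bowtie, Bowtie2, featureCounts and Subread were used with GRCm38 (mm10), versions and strand setting not given in the sources used here. The authors deposited whole-number read counts per gene (46517 identifiers, 367 cells in pool A and 308 in pool B). Symbols came from GENCODE M21 names, and the 512 identifiers without a symbol held 0.217% of counts.

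By the rule, 295 cells of pool A (52 members, 188 Wnt16-zero) and 253 of pool B (54 members, 113 Wnt16-zero) were smooth muscle, and 127 cells were not. Counts were summed per pool and class (6 sums) and fitted in R 4.3.3 with edgeR 4.0.16 (TMM, filterByExpr, quasi-likelihood test, pool as block, Benjamini-Hochberg threshold 0.05). The edgeR fit was also run on simulated sums with known changes. These sums were drawn without a pool effect and without single cells, and DESeq2 was not run on them. DESeq2 1.42.0 was an alternative. SE is the fold change over the root of F, and intervals use its t distribution. Within-pool changes use a prior count of 2. Classes of 1 pool share mice and plate, and their pool A minus pool B differences correlated over genes at 0.42 to 0.50, so the pool was a block. P-values set a class difference against how far such differences varied between the 2 pools over the 6 sums, with the spread estimate shared across genes. Doublets were not called; per the labels, cells were sorted singly.

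Members and gene lists were chosen with earlier results of these data known. Named genes were, per direction, 12 with a mean of 20 CPM or more and 100 CPM in at least 10 cells of the higher class, ranked by the smaller within-pool change; Wnt genes at 20 CPM or more; markers of other subsets; and genes within 500 kb of Wnt16. The DESeq2 genes, the pericyte markers and single genes of lists were named after their values were seen. Shares after thinning to 100000 counts left out shallower cells (0 members, 2 Wnt16-low and 4 Wnt16-zero cells). The 8 Wnt lists held 118 genes besides Wnt16.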

Additional observations from a re-analysis of the deposited data

Results flagged for a closer look

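Wnt16 was also read in cells outside the smooth muscle rule, which no comparison above used. Of these cells, 30 (23.6%) had at least 1 Wnt16 read and 3 (2.36%, exact 95% interval 0.490 to 6.75) reached 100 CPM. The 3 cells held 200.4, 283.01 and 432 CPM of Wnt16, from 23 or more reads each. The first was in pool A at 9760 CPM of Myh11 and missed the rule by Cnn1 alone (471 CPM). The second, also in pool A, had only 70.8 CPM of Myh11. The third, in pool B, met the Myh11 and Cnn1 limits and had 216.1 CPM of Dcn and 692 CPM of Serpinf1.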

How the results depend on the processing

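The count of genes called besides Wnt16 between Wnt16-high and Wnt16-zero cells was 0 by edgeR and 39 by DESeq2. It stayed at 0 in the 12 other edgeR settings, where up to 1318 genes had an unadjusted p under 0.05. With no replicate block, so without pairing classes by pool, it was 0 (479 at an unadjusted p under 0.05) for the Wnt16-high and 0 for the Wnt16-low comparison. For the Wnt16-low cells DESeq2, added after seeing the data, gave 10. Settings on other reads (fewer endothelial and fibroblast reads, low Rgs5) were added after seeing the data. Members at 200 CPM or more made up 10.2% (pool A) and 8.70% (pool B) of smooth muscle cells, and among cells with 0 reads of the 5 endothelial and fibroblast genes 9.09% and 0%. That last setting left 1 and 0 members, so its fit could not be run. Thinned shares of cells with a read were 55.8% and 48.7% for Wif1 in Wnt16-high and Wnt16-zero cells of pool A, and 72.7% for Wif1 in Wnt16-zero cells of pool B; for Rgs5 they were 72.7% in Wnt16-zero cells of pool A, and 72.2% and 80% in Wnt16-high and Wnt16-zero cells of pool B. Of 47 named genes with a change of 2 SE or more, 45 kept their sign in every setting run and with either pool left out. The exceptions were Gpx3 (0.72 with few endothelial and fibroblast reads, 0.35 at low Rgs5) and Vcam1 (-0.36 at low Rgs5). With either pool left out, no test was possible. Counting noise limits genes under about 20 CPM, where few cells hold the reads.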
